A study of Mus musculus with 2 samples.

Results

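The fatty acid omega-hydroxylases of the Cyp4 family were followed across the microarrays of livers with and without Lpcat3, the enzyme that places polyunsaturated fatty acids such as arachidonate into phospholipids. The 10 members were Cyp4a10, Cyp4a14, Cyp4a31, Cyp4b1, Cyp4f13, Cyp4f14, Cyp4f15, Cyp4f16, Cyp4f18 and Cyp4v3, and they were chosen by gene symbol, so that every probe set the platform annotation gives to one of these symbols was taken whatever its value. Of the 10 members, 9 had a probe set of their own and 8 were measured, among 18193 genes with a probe set and 12290 measured genes on the array. A gene was called measured where its signal reached 86.6, the median of all values, on at least 1 array, and lower signals were raised to that floor before a ratio was taken.

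Both arrays held liver RNA of male mice 16 weeks old on a western diet, which began at 7 weeks and lasted 9 weeks, and the livers were taken after a fast of 6 hr. The control array held RNA pooled from 5 Lpcat3fl/fl mice, in which the Lpcat3 gene carries loxP sites and is not cut. The other array held RNA pooled from 5 Lpcat3fl/fl Albumin-Cre mice, named L-Lpcat3 KO (here the knockout), in which Cre is made from the albumin promoter and so acts in hepatocytes, while the other cells of the liver keep Lpcat3. With 1 pool for each genotype there was no replicate, no p-value could be given, and the spread between mice was not seen.

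Cyp4 enzymes sit in the endoplasmic reticulum membrane, take electrons from cytochrome P450 reductase and cytochrome b5, and hydroxylate fatty acids at or next to the terminal (omega) carbon. The product is oxidized by alcohol and aldehyde dehydrogenases to a dicarboxylic acid, which peroxisomes shorten. The Cyp4a enzymes act on medium and long chain fatty acids and on arachidonate, and Cyp4a10 and Cyp4a14 are classic targets of PPARalpha, the receptor that fasting and fatty acids activate in liver. The Cyp4f enzymes hydroxylate very long chain fatty acids, leukotrienes and the side chain of vitamin E.

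The Cyp4 genes were split between higher and lower signals. Of the 8 measured members, 4 were higher and 4 were lower in the knockout, with a median log2 ratio of -0.0020 beside 0.01 over all measured genes. At 2-fold, 0 members were higher and 1, Cyp4f14, was lower, where 2.70% of all measured genes passed 2-fold upward and 0.700% downward. At 1.5-fold, 2 members were higher (Cyp4a31 and Cyp4b1) and 1 was lower, beside 9.07% and 3.83% of all measured genes. At 3-fold no member was called in either direction, beside 0.448% higher and 0.0895% lower over all measured genes. With 8 genes these counts are small, and no call was made about the family from them.

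The genes lay on both sides of 0, and the sign followed subfamily only in part, as Cyp4f held both signs. Cyp4b and Cyp4v had 1 measured gene each. The Cyp4a and Cyp4b1 genes were higher, 3 of the 4 measured Cyp4f genes were lower, and Cyp4v3 was lower. Log2 ratios of several probe sets of one gene spread with an SD of 0.29 over 4476 genes, which stands in here for the error of measurement and says nothing of the spread between mice. The ratios of 6 members lay beyond this SD, as did those of 37.5% of all measured genes. Those of Cyp4a14 and of Cyp4v3, by its brighter probe set, lay within it. The SD is the same at every signal level. Cyp4f16 is counted beyond it, though genes of like low signal ran from -0.70 to 1.21 between their 5th and 95th percentiles.

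The bases before the transcription start are shown for the 5 Cyp4f members, since these are close paralogs, 1 of which held the largest difference of the family. The sequences are from RefSeq on GRCm38.p6, 250 bases each, 5′ to 3′ in the direction of transcription, and the capitals mark the CCAAT box, which reads ATTGG where it lies on the opposite strand. They are Cyp4f14 at chr17:32917330-32917579 on the minus strand, Cyp4f13 at chr17:32947362-32947611 on the minus strand, Cyp4f15 at chr17:32685409-32685658 on the plus strand, Cyp4f16 at chr17:32536307-32536556 on the plus strand and Cyp4f18 at chr8:72009627-72009876 on the minus strand.
Cyp4f14: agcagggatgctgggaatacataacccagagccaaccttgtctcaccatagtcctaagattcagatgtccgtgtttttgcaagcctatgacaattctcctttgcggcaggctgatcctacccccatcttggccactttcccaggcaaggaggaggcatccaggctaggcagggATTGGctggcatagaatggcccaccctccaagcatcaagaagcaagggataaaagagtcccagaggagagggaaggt
Cyp4f13: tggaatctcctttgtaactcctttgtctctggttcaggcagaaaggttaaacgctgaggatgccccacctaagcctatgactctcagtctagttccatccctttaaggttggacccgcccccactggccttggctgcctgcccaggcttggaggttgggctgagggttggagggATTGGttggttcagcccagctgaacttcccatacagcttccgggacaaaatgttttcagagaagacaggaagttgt
Cyp4f15: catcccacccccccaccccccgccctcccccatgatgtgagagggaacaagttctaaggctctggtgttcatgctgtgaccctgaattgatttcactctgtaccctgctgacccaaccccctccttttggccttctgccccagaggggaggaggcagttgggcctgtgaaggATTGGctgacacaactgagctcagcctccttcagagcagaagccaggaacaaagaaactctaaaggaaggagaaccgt
Cyp4f16: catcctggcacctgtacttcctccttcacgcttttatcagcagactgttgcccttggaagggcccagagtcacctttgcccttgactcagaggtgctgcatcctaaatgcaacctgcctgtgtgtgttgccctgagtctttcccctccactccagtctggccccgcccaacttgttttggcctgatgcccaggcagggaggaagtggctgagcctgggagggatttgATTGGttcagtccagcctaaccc
Cyp4f18: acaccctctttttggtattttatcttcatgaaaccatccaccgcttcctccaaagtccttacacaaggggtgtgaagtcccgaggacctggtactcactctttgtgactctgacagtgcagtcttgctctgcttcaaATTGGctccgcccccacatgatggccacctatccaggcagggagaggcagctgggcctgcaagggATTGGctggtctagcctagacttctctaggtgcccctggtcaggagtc

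Each of these stretches holds the CCAAT box on the strand opposite to the gene. Its first base on the printed strand lies 77 bases before the start in Cyp4f14, 76 in Cyp4f13, 78 in Cyp4f15 and 23 in Cyp4f16, and Cyp4f18 holds 2 matches, 113 and 48 bases before its start. Cyp4f14 has 4 listed starts, and the one printed was picked because its box lies at the distance seen in Cyp4f13 and Cyp4f15. Its other windows hold the same box 64 or 50 bases before the start, and for the start farthest downstream a different CCAAT, on the strand of the gene, 24 bases before it. Around the box, Cyp4f14 and Cyp4f18 share the 13-base run AGGGATTGGCTGG, the longest run that this pair has in common. CCAAT on either strand was found in 37.4% of 32851 windows of 27025 genes, each 300 bases long (250 before the start and 50 after it). The box was present in the 3 lower genes, in Cyp4f16, which was higher, and in Cyp4f18, which gave no ratio, so it did not separate them.

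Of the 10 members, 7 had a promoter window, and Cyp4a10, Cyp4a14 and Cyp4a31 had none in the table used here. The windows of Cyp4b1 and Cyp4v3 held no CCAAT. The receptor core site AGGTCA, searched on both strands, was in 16.3% of all windows and in none of the members' windows. A direct repeat of AGGTCA with 1 base between the copies, the form of element that PPARalpha binds with its partner RXR, was in 0.554% of all windows with at most 1 mismatch and in 3.86% with at most 2. Among the members it was in Cyp4f16 alone, with 2 mismatches, 181 bases before the start. TATAAA was in 13.6% of all windows and in none of the members' windows, and CACGTG was in 7.15% and in Cyp4v3, 171 bases before its start. A match is a description of letters in a window, and a window without one may have sites elsewhere.

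Lpcat3, the targeted gene, was read in both pools. Its probe set (1423960_at) read 5173 in control liver and 2198 in the knockout, 42.5% of control, a log2 ratio of -1.23. The signal was lower in the knockout, and whether this probe set lies within the deleted part of the gene was not examined here.

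**Figure D1:**
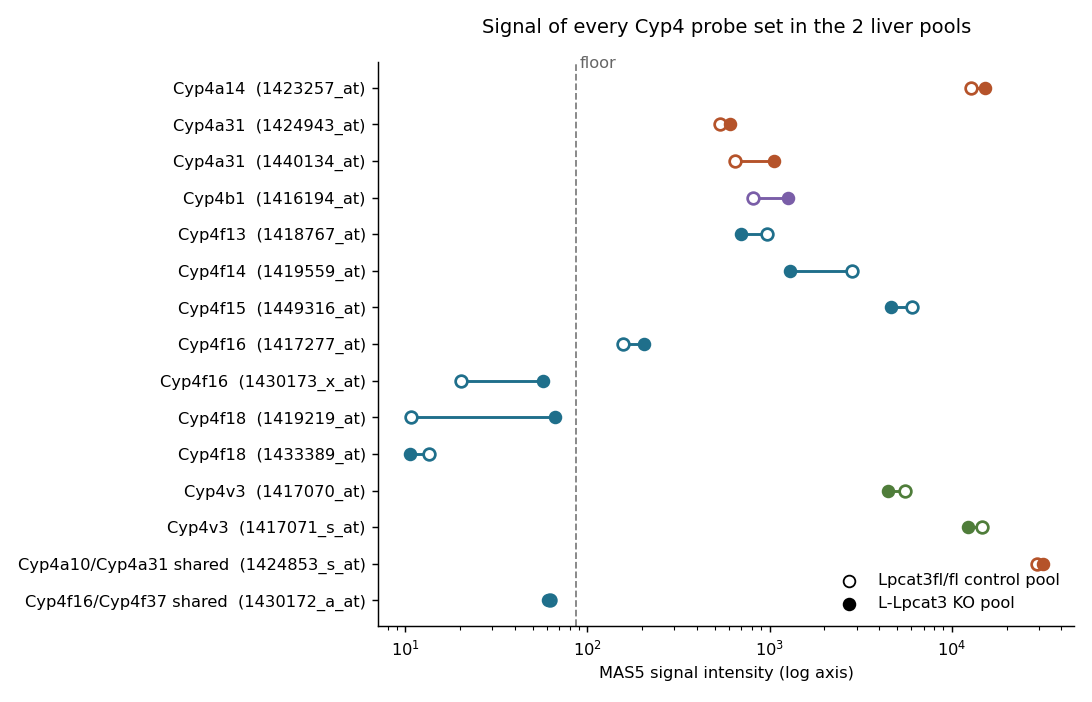
MAS5 signal intensity (log axis) of each probe set of the Cyp4 members, with open circles for the Lpcat3fl/fl control pool, filled circles for the L-Lpcat3 KO pool and a dashed line at the floor of 86.6. The filled circle of Cyp4f14 lies farthest to the left of its open circle among the probe sets above the floor, and both probe sets of Cyp4f18 lie below the floor.

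Cyp4f14 is a main leukotriene B4 omega-hydroxylase of mouse liver and the counterpart of the human enzymes that hydroxylate vitamin E and very long chain fatty acids. Its single probe set (1419559_at) read 2836 in the control pool and 1293 in the knockout pool. The knockout signal was 45.6% of control, a log2 ratio of -1.13 or 2.19-fold lower. This was the only member past 2-fold in either direction, and it ranked 51 from the lowest of 12290 measured genes. Both signals stood well above the floor, so the ratio was not set by it. With 1 probe set there is no second reading of Cyp4f14 on these arrays.

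Cyp4f13 and Cyp4f15, which neighbour Cyp4f14 in the same gene cluster and also act on leukotrienes and long chain fatty acids, were lower by less. Cyp4f13 (1418767_at) read 968 in the control pool and 697 in the knockout, a log2 ratio of -0.47, with 6.26% of measured genes at or below it. Cyp4f15 (1449316_at) read 6065 and 4634, a log2 ratio of -0.39, with 9.54% of measured genes at or below it. Neither reached 1.5-fold. The 3 lower genes were all beyond the SD among probe sets of one gene, Cyp4f14 by the widest margin.

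Cyp4f16, a related Cyp4f enzyme, had a probe set above the floor (1417277_at) that read 157 in the control pool and 204 in the knockout, a log2 ratio of 0.38. Its second probe set (1430173_x_at) read 20.2 and 57.0, below the floor on both arrays, and gave no ratio. The remaining one (1430172_a_at) is annotated to Cyp4f16 and Cyp4f37 together and read 62.6 and 60.6, also below the floor. The promoter windows of this pair were 75.7% identical, beside 53.3% to 66.7% for the other Cyp4f pairs aligned, and shared a run of 74 bases. The transcripts that the probes read were not compared, and no signal was given to Cyp4f37. The Cyp4f16 signals were all low, in the range where the ratios of all genes fan out in the plot of all measured genes.

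Cyp4f18, known as the enzyme that hydroxylates leukotriene B4 in mouse neutrophils and dendritic cells, was not detected above the floor. Its probe sets read 10.8 in the control pool and 66.5 in the knockout (1419219_at), and 13.6 and 10.6 (1433389_at). The first was higher and the second lower in the knockout, all 4 values were below 86.6, and no ratio was taken. Neutrophil markers were low as well. Of 8 such markers with a probe set, 6 were measured, 4 of them with 1 value below the floor. At 2-fold, 1 was higher (S100a8, a log2 ratio of at least 1.10) and 0 were lower, beside 2.70% and 0.700% of all measured genes. The brightest, Csf3r, gave 0.37. Below 0 were Ngp (-0.27) and Ltf (99.8 in the control pool and 28.9 in the knockout, -0.20 or lower), named after their values were seen. The median log2 ratio of the 6 was 0.26, and with no floor and no filter that of all 8 was 0.05. The summed signal of those measured was 671 in the control pool and 796 in the knockout. Of 6 dendritic cell markers with a probe set, 3 were measured and 1 was at least 2-fold higher (Itgax, at least 1.59). Their median log2 ratio was 0.73, that of the brightest, Zbtb46, but 0.35 with the mean of each gene's probe sets and 1.16 without probe sets ending in _x_at, _s_at or _a_at, and their summed signal was 392 and 745. The part of these cells in the Cyp4f18 signal was not tested.

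Cyp4v3, the mouse counterpart of the human omega-hydroxylase CYP4V2 that is mutated in Bietti crystalline dystrophy, had 2 probe sets that gave nearly the same ratio. One (1417071_s_at) read 14638 in the control pool and 12237 in the knockout, and the other (1417070_at) read 5559 and 4469. Their log2 ratios were -0.26 and -0.32, a difference of 0.06. Both were slightly lower. The ratio of the first lay within the SD among probe sets of one gene, and that of the second lay just beyond it.

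The Cyp4a enzymes stood at or above control. Cyp4a14, among the most PPARalpha-responsive genes of liver, read 12785 in the control pool and 15251 in the knockout (1423257_at), a log2 ratio of 0.25, with 75.9% of measured genes at or below it. For Cyp4a10 there was no probe set of its own. The probe set that carries its name (1424853_s_at) is annotated to Cyp4a31 and Cyp4a10 together, read 29385 and 31609, and gave a log2 ratio of 0.11, which cannot be divided between the 2 genes. These signals were strong on both arrays, and both ratios lay within the SD among probe sets of one gene. Among 321 genes of like signal, however, 94.4% lay at or below Cyp4a14.

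Cyp4a31, a close paralog of Cyp4a10, had 2 probe sets of its own that did not match well. The brighter one (1440134_at) read 647 in the control pool and 1059 in the knockout, a log2 ratio of 0.71 or 1.64-fold higher, with 93.6% of measured genes at or below it. The other (1424943_at) read 535 and 610, a log2 ratio of 0.19. Both were higher in the knockout, by amounts 0.52 apart on the log2 scale, so that the 1.5-fold call of Cyp4a31 rests on 1 of the 2. Since the Cyp4a paralogs are nearly alike in sequence, the gene behind each signal is uncertain.

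Cyp4b1, best known from lung, where it activates furans and aromatic amines and hydroxylates medium chain fatty acids, read 814 in the control pool and 1264 in the knockout (1416194_at). The log2 ratio was 0.63, or 1.55-fold higher, with 92.1% of measured genes at or below it. There was 1 probe set for this gene, and both values were well above the floor.

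**Figure D2:**
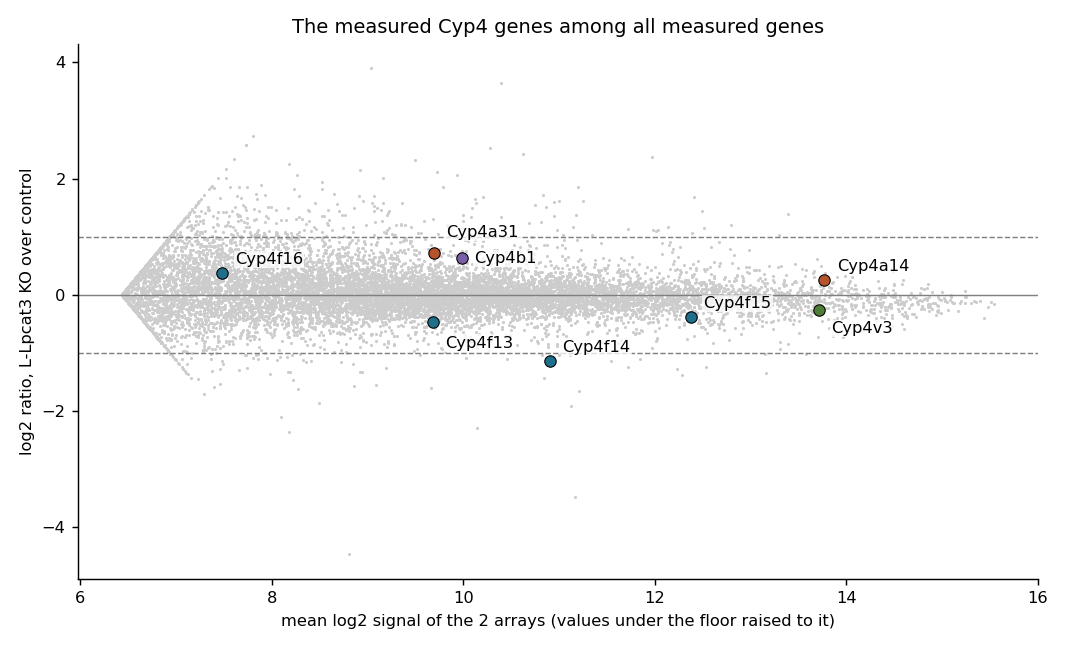
Log2 ratio (knockout over control) against the mean log2 signal of the 2 arrays for the 12290 measured genes (grey), with the 8 measured Cyp4 members in colour and dashed lines at 2-fold. Cyp4f14, at -1.13, lies below the lower line, and the other 7 members lie between the lines, from -0.47 to 0.71.

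Of 4 other genes of the family with a probe set of their own, 2 were measured. Cyp4a12a, the androgen-dependent enzyme that makes most of the omega-hydroxylated arachidonate in male mice, read 9496 in the control pool and 10005 in the knockout, a log2 ratio of 0.08. Cyp4f39 read 73.8 and 107, which is a log2 ratio of at least 0.31 because the control value lay below the floor. Cyp4x1 and the pseudogene Cyp4f41-ps were below the floor on both arrays.

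Most members lie side by side in the genome. In the gene order of the RefSeq table, Cyp4a12a, Cyp4a14, Cyp4a10, Cyp4a31 and Cyp4b1 come in this order on chromosome 4, and the neighbours past Cyp4b1 gave log2 ratios of 0.15 (Efcab14) and 0.05 (Atpaf1). On chromosome 17, Cyp4f16 comes first, then Cyp4f15, a run of zinc finger genes, Cyp4f14 and Cyp4f13. The zinc finger genes between Cyp4f15 and Cyp4f14 that were measured, Zfp871 and Zfp799, gave -0.47 and -0.39, close to Cyp4f15 and Cyp4f13. Beyond Cyp4f13 the measured zinc finger genes gave 0.17 (Zfp472), -0.12 (Zfp952) and 0.13 (Zfp763). Cyp4f14 was thus the lowest of the genes measured in this stretch, and the nearest measured genes on either side of it were also below 0.

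**Figure D3:**
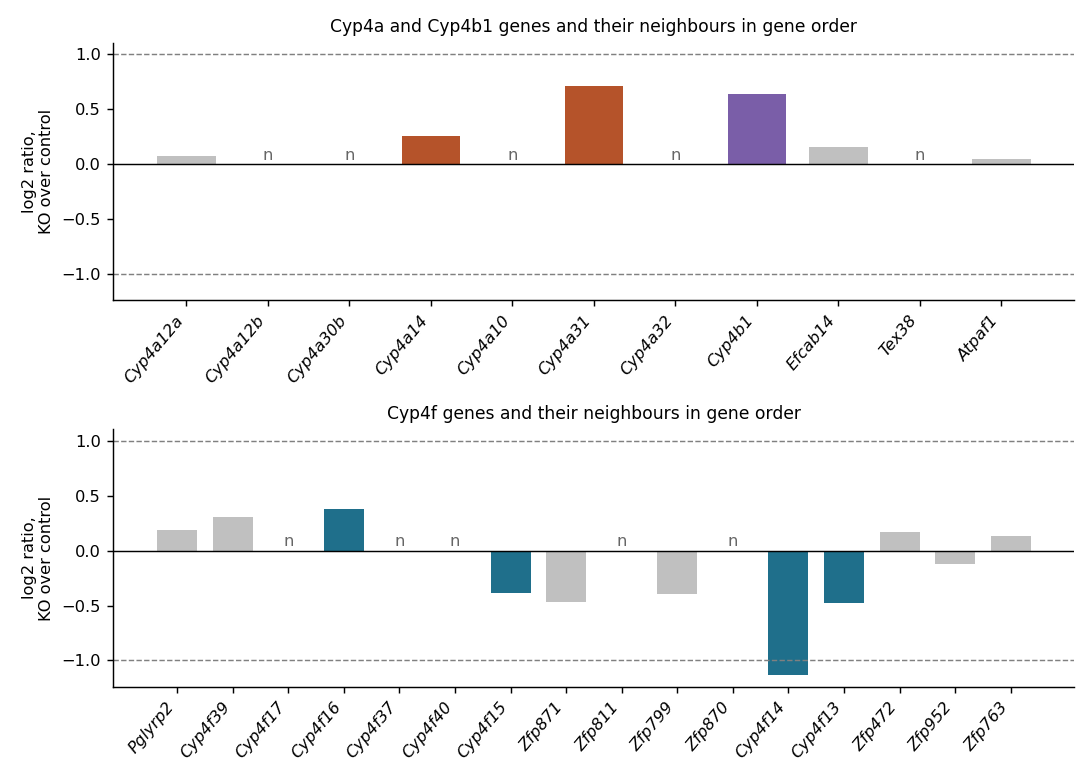
Log2 ratio (knockout over control) for the genes of the 2 Cyp4 clusters in their order along the chromosome (bars start at 0, coloured for the members and grey for other genes, n for genes with no measured probe set of their own, dashed lines at 2-fold). The genes from Cyp4f15 to Cyp4f13 that were measured lie from -0.39 to -1.13, and those from Cyp4a14 to Cyp4b1 from 0.25 to 0.71.

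Cyp4v3 lies on chromosome 8 beside the coagulation genes Klkb1 and F11, which encode prekallikrein and factor XI. Klkb1 read 9564 in the control pool and 6919 in the knockout, a log2 ratio of -0.47, and F11 read 2058 and 959, a log2 ratio of -1.10. On the other side, Fam149a gave -0.15 and Tlr3 -0.29. The ratio of Cyp4v3 thus lay nearer to 0 than that of either coagulation gene.

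No gene among the electron donors and dehydrogenases that work with Cyp4 passed 2-fold. Over all measured genes 2.70% passed it upward and 0.700% downward, so a count of 0 in lists this short says little. Cytochrome P450 reductase (Por) had no probe set of its own and was not analysed here. Of the 4 measured microsomal electron donors, the b5 cytochromes and their reductases, 0 passed 2-fold in either direction and the median log2 ratio was 0.04. The brightest, cytochrome b5 (Cyb5a), read 31469 in the control pool and 27723 in the knockout, a log2 ratio of -0.18. Of 5 measured alcohol and aldehyde dehydrogenases of omega-oxidation, 0 passed 2-fold and the median was -0.16, with the brightest, Adh1, at -0.17. The lowest of them, Adh4, gave -0.50 and is named after its value was seen. Of 19 measured genes of peroxisomal beta-oxidation, 1 was at least 2-fold higher, the fatty acid transporter Abcd2 (168 in the control pool and 350 in the knockout, log2 ratio 1.06), and 0 were lower. The median of that list was 0.05, and its brightest gene, the thiolase Acaa1b, gave -0.15.

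Genes listed here as PPARalpha targets, as Cyp4a10 and Cyp4a14 are, were mixed. Which receptor acts on each of them in these livers was not tested. Of 26 measured PPARalpha targets outside these lists, 4 were at least 2-fold higher and 0 lower, beside 2.70% and 0.700% of all measured genes. Their median log2 ratio was 0.12. The 4 were the lipid droplet protein Cidec (684 in the control pool and 3659 in the knockout, log2 ratio 2.42), the pyruvate dehydrogenase kinase Pdk4 (1.28), the hormone Fgf21 (1.22) and the fatty acid receptor Cd36 (1.09). These genes were already shown by the study from livers of such mice, so they are no independent evidence. The other 22 targets had a median of 0.04. That 0 of them passed 2-fold in either direction follows from setting those 4 aside, and the lower median follows in part, so neither is a separate result. The brightest target, the fatty acid binding protein Fabp1, read 50437 and 45307, a log2 ratio of -0.15. Cyp4a14 at 0.25 lay above the median of the 26 targets and below each of the 4 genes past 2-fold.

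Among 12 measured nuclear receptors and coregulators, 1 was at least 2-fold higher and 0 were lower, beside 2.70% and 0.700% of all measured genes. Their median log2 ratio was -0.11. The higher one was Pparg, a receptor of fat storage, at 468 in the control pool and 1056 in the knockout (1.17). Ppara itself gave 0.05 in its brightest probe set (5818 and 6023), and -0.19 and -0.13 in its other probe sets. The brightest of 5 probe sets of its coactivator Ppargc1a read 386 and 256, a log2 ratio of -0.59, and the 5 ran from -0.71 to -0.03. Both genes are named for their role, after their values were seen. The brightest of the list, the hepatocyte factor Hnf4a, gave -0.28.

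Related lipid mediator pathways were looked at beside the Cyp4f genes. Among 5 measured genes of leukotriene synthesis and reception, 1 was at least 2-fold higher and 0 were lower, beside 2.70% and 0.700% of all measured genes. The median was 0.15. The higher one was Alox5ap, which presents arachidonate to the lipoxygenase and is made by myeloid cells (148 in the control pool and 422 in the knockout, log2 ratio 1.51). Lta4h, which makes the leukotriene that Cyp4f14 hydroxylates, gave -0.17. Of 12 measured arachidonate epoxygenases and epoxide hydrolases, 0 passed 2-fold in either direction and the median was -0.19, with the brightest, Cyp2c50, at 29161 and 22066, a log2 ratio of -0.40.

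Male-biased liver genes, the list that holds Cyp4a12a, were mostly lower. Of 10 measured, 5 were at least 2-fold lower and 0 higher, beside 0.700% and 2.70% of all measured genes. Their median log2 ratio was -1.02. The list was chosen with earlier results of these data known, and it holds Moxd1, the lowest of all measured genes. Its counts are therefore no independent evidence about male-biased genes. The 4 largest were Moxd1 (-4.47), the steroid enzyme Hsd3b5 (-3.47), the oxysterol hydroxylase Cyp7b1 (-1.34) and the organic anion transporter Slco1a1 (-1.28), while the brightest, Cyp2d9, gave -0.39. Cyp4a12a was the one gene of this list above 0. Of 8 measured female-biased genes, 1 was at least 2-fold higher (Abcd2) and 1 lower (Cyp2b9, -1.09), with a median of 0.23 that was below 0 without the floor and with the floor at the 75th percentile.

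**Figure D4:**
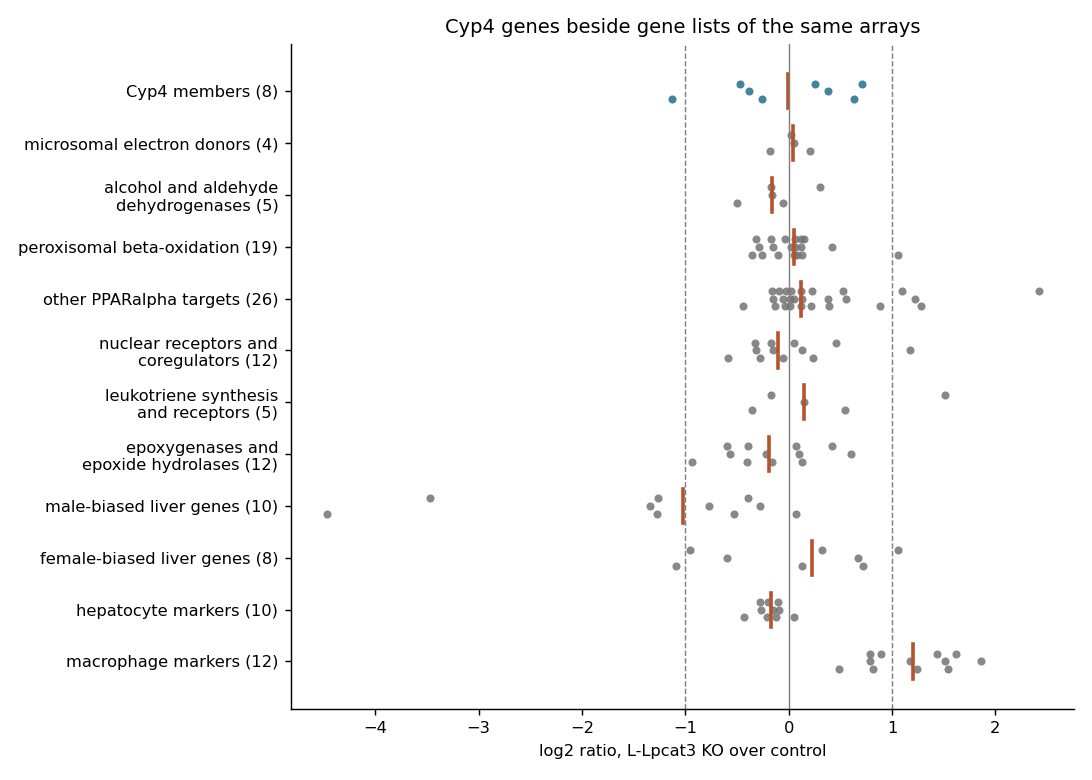
Log2 ratio (knockout over control) for each measured gene (points) of the Cyp4 members and of gene lists from the same arrays, with orange bars at the medians, dashed lines at 2-fold and the number of measured genes in brackets; ratios with 1 value below the floor are drawn at their bound. The Cyp4 members lie from -1.13 to 0.71 around a median near 0, the male-biased genes have a median of -1.02 and the macrophage markers one of 1.21.

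Markers of the cell types of liver also differed between the pools. All 12 macrophage markers were above 0, 7 of them at least 2-fold higher, with a median log2 ratio of 1.21 and a summed signal of 15129 in the control pool and 33617 in the knockout. The largest were Lyz2 (1.86), C1qb (1.62), C1qa (1.54) and Marco (1.52), and the brightest, Csf1r, gave 0.79. All 5 measured B cell markers, 4 of 8 stellate and myofibroblast markers and 3 of 7 endothelial markers were at least 2-fold higher, and 0 markers of these lists were at least 2-fold lower. Over all measured genes, 2.70% were at least 2-fold higher and 0.700% lower. Of 5 cholangiocyte markers, 2 were measured, with a median of -0.10 and the brightest, Epcam, at -0.09. The B cell genes of largest ratio were Ighm (2.52), which was also the brightest, Ms4a1 (at least 2.17), Cd79b (at least 1.61) and Cd79a (at least 1.11). The 4 stellate and myofibroblast genes were Tagln (1.83), Acta2 (1.70), Col3a1 (1.07), the brightest, and Col1a1 (1.07). The rest of that list did not pass 2-fold and is named after its values were seen. It gave 0.60 (Lrat), 0.54 (Pdgfrb), 0.11 (Des) and -0.0025 (Reln). The 3 endothelial genes were Lyve1 (1.41), Pecam1 (1.41) and Vwf (1.02), and the brightest, Clec4g, gave 0.31. Of 10 hepatocyte markers, all above the floor, 9 were below 0 and 0 passed 2-fold, with log2 ratios from -0.43 to 0.05, a median of -0.17 and a summed signal of 298021 and 268469, and the brightest, Apoa1, gave -0.12. Cyp4f14 at -1.13 and Cyp4f13 at -0.47 lay below all 10 hepatocyte markers, Cyp4f15 at -0.39 below 9 and Cyp4v3 at -0.26 below 7, while the other 4 measured members lay above all 10. The part of these cell types in the Cyp4 ratios was not tested, and in bulk liver fewer cells of a type and less RNA per cell cannot be told apart.

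Markers of adipose tissue and kidney were read as well. Of 3 adipose markers with a probe set, 2 were measured and both were at least 2-fold higher (Adipoq from 38.9 to 314, a log2 ratio of at least 1.86, and Retn, the brightest, from 64.4 to 218, at least 1.33). Over all measured genes, 2.70% passed 2-fold upward. Of 4 kidney markers, 2 were measured, each on 1 array only, with summed signals of 137 and 195 and the brightest, Slc34a1, at -0.18 or lower. Cyp4b1 is also made outside hepatocytes, and the part of other cells in its signal was not tested.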

How the data were processed

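Liver RNA of 2 pools of 5 mice was hybridised to Affymetrix mouse genome arrays, 1 for each genotype. The authors deposited linear signal intensity values from MAS5 (the submitters' processing notes give no version), and the methods name GenespringGX for the analysis. Both arrays had a trimmed mean of 500 once the lowest and highest 2% of probe sets were left out, the global scaling of MAS5, which takes most transcripts to be equal between arrays. Signals near background carry the most noise. The number of arrays limits the precision.

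Symbols were taken from the platform annotation and brought up to date by Entrez identifier with RefSeq names of GRCm38.p6 (18032 of 18193 genes matched). Of 45101 probe sets, 34945 had 1 symbol, 932 had several and were left out of genes, and 9160 were unnamed here. A gene was represented by its brightest probe set (mean log2 signal). Values were raised to the floor of 86.6, ratios were log2 of L-Lpcat3 KO over control, a ratio with 1 value below the floor is a lower bound (1317 genes), and genes below it on both arrays had none. Calls were made at 2-fold, with 1.5-fold and 3-fold beside it, and without a test. The 3′ to 5′ signal ratio of Gapdh was 0.810 in the control and 0.822 in the knockout pool, and that of Actb 2.28 on both.

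The members and lists were chosen with earlier results of these data known. Named were all members and, of each list, the genes past 2-fold (at most the 4 largest) and the brightest, with others marked. Alternatives were median centring, quantile normalization, other floors, a pseudocount of 16, the mean of a gene's probe sets and leaving out probe sets ending in _x_at, _s_at or _a_at. Promoter windows were matched by symbol. The code for the ratios was tested on data simulated from the control array, with changes planted only in genes well above the floor. That test does not cover ratios near the floor or the spread between mice. Python 3.11.15, numpy 2.4.6 and pandas 2.3.3 were used.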

Additional observations from a re-analysis of the deposited data

How the results depend on the processing

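Cyp4f14 stayed at least 2-fold lower, and 1 member was counted lower, under each planned change of centring, normalization, floor, probe set choice or filter (log2 ratios from -1.14 to -1.12), and at 1.5-fold, whereas at 3-fold the count was 0. Cyp4f14 has 1 probe set, with both signals above every floor used, so the changes of floor, probe set choice and filter could not move its ratio. Only centring, normalization and the pseudocount could. Of the 71 member ratios recomputed, all moved by less than the SD among probe sets of one gene. For other members with 1 probe set above the floors, several of these settings could likewise not move the ratio. The count of members at least 2-fold higher, 0, became 1 with the floor at the 25th percentile (Cyp4f18, log2 ratio at least 1.38), with no floor and no filter (2.62) and with a pseudocount of 16 in place of the floor (1.62), where 7.02%, 12.3% and 6.64% of all genes were then called higher; it became 2 at 1.5-fold. Cyp4f18 rests on 1 of its 2 probe sets, both of them below the floor. Over all genes, 332 were higher and 86 lower at 2-fold, which became 1132 and 479 with the floor at the 25th percentile, 88 and 25 with it at the 75th, 2230 and 1183 with no floor, and 1208 and 562 with the pseudocount. With the floor at the 75th percentile Cyp4f16 was no longer measured, and the median of the remaining 7 members was -0.26. Counting the shared Cyp4a10 and Cyp4a31 probe set as Cyp4a10, a choice made after seeing the data, gave a median of 0.11 (9 members) and changed no count. Of 155 list medians recomputed, 146 moved by less than that SD. Of the other 9, the female-biased list turned from 0.23 to -0.18, -0.10 and -0.07 with the floor at the 75th percentile, with no floor and with the pseudocount, and 6 were of cell markers. With the mean of probe sets the dendritic cell median went from 0.73 to 0.35 and the B cell median from 1.61 to 1.23. Without probe sets ending in _x_at, _s_at or _a_at the dendritic cell median was 1.16. With the floor at the 75th percentile the B cell median was 2.52 (1 gene) and the stellate one 0.54, from 0.84, and with it at the 25th the adipose median was 2.39. No paired analysis was possible because each genotype had 1 pool, and leaving out a replicate could not be done.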
